A study of Homo sapiens with 48 samples.

Results

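The 8 genes described here encode the transcription factor NFE2L1 (also called TCF11 or NRF1), its CNC relatives NFE2L2 (NRF2) and NFE2L3 (NRF3), the enzymes DDI2 and NGLY1 that activate NFE2L1, and the small MAF proteins MAFF, MAFG and MAFK. They were chosen by symbol from known roles, with earlier results of these data known. Each symbol stood on exactly 1 of the 33892 gene rows, so all 8 were found, and all 8 passed the filter on low counts in every cell line.

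NFE2L1 is made as a glycoprotein of the endoplasmic reticulum and is normally pulled out of the membrane and destroyed by the proteasome. When the proteasome is blocked, the extracted protein is deglycosylated by the N-glycanase NGLY1 and cut by the aspartic protease DDI2, and the active fragment enters the nucleus and raises transcription of proteasome subunit genes, a response known as bounce-back. CNC factors bind DNA as heterodimers with a small MAF protein at antioxidant response elements (ARE). NFE2L2, held down by KEAP1, binds the same kind of element in front of genes against oxidative stress. Activation of NFE2L1 is regulated mainly after translation, so the RNA levels given here do not measure the active protein.

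RNA was sequenced from 48 libraries of 8 established human cancer cell lines, RKO and DLD-1 (colon), H-23 and H-1299 (lung), PANC-1 and CAPAN-2 (pancreas), and H-929 and RPMI (multiple myeloma). Each line was treated for 24 h with DMSO, the solvent, or with carfilzomib, a proteasome inhibitor used against myeloma, at the dose that lowered proteasome activity by 50% in that line. Each of the 16 groups had 3 biological replicates. Doses therefore differed between lines, and concentrations were not used here. The labels name no engineered allele in any line, each tumour type is represented by 2 lines, and each line is a single established culture. Library totals ran from 9.12 to 64.4 M counts (M for mega, median 28.8 M), and a member had 91 to 18600 counts in a library. In the DMSO libraries all 7 plasma cell markers were above 1 CPM (reads of a gene scaled to a common library total) in H-929 and RPMI. All 6 epithelial markers were above 1 CPM in DLD-1, H-23, PANC-1 and CAPAN-2, but only 3 of 6 in RKO, where KRT19 had no count, and 3 of 6 in H-1299. The myeloma line RPMI had 5 of 6 above 1 CPM, with EPCAM at 118 CPM and KRT18 at 103 CPM. Of 4 colon markers, 1 was above 1 CPM in RKO and 2 in DLD-1, as also in H-23 and CAPAN-2. LGALS4 had no count in either colon line and CDX1 none in RKO. Among genes of other cell types, COL3A1 stood at 152 CPM in PANC-1 and CD3E at 21.9 CPM in H-929. Because whole cultures were sequenced, fewer cells of one kind and less RNA per cell cannot be told apart.

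The 3 treated libraries of a line were tested against its 3 controls by the quasi-likelihood test of edgeR, and a gene was called when its p, adjusted by Benjamini-Hochberg over all genes of the line, was under 0.05. Of the 64 tests of a member in a line, 32 were called higher and 13 lower, and 19 were not called. Over all 129977 tests of a gene in a line, 20.8% were called higher and 21.1% lower. The 3 DMSO and the 3 carfilzomib values did not overlap in 48 of the 64, against 52.1% over all genes. Of the 45 calls, 9 reached a 2-fold change, a count for which no share over all genes was computed. MAFF and MAFG were called in the higher direction alone, NFE2L3 in the lower direction alone, and the other 5 genes in both directions depending on the line.

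RKO gave none of these calls. No member passed the test there, in a line where 3.62% of genes were called higher and 5.28% lower, and 1 member, MAFK, had groups that did not overlap (28.2% of genes). In DLD-1, 4 members rose (10.9% of genes) and 2 fell (12.1%), with 7 not overlapping (39.9%). In H-23, 6 rose (17.7%) and 1 fell (16.2%), with 7 not overlapping (45.7%). In H-1299 all 8 were called, 6 higher (29.8%) and 2 lower (31.3%), and no groups overlapped (66.2% of genes did not).

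Among the pancreatic lines, PANC-1 had 4 members higher (20.5% of genes) and 1 lower (18.2%), with 5 not overlapping (49.6%), and CAPAN-2 had 5 higher (25.7%) and 2 lower (26.7%), with all 8 not overlapping (59.3%). The myeloma lines differed in their counts. In H-929, 2 rose (26.4%) and 2 fell (26.2%), with 4 not overlapping (59.4%), whereas in RPMI all 8 were called, 5 higher (31.3%) and 3 lower (32.2%), and no groups overlapped (68.2% of genes did not).

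**Figure D1:**
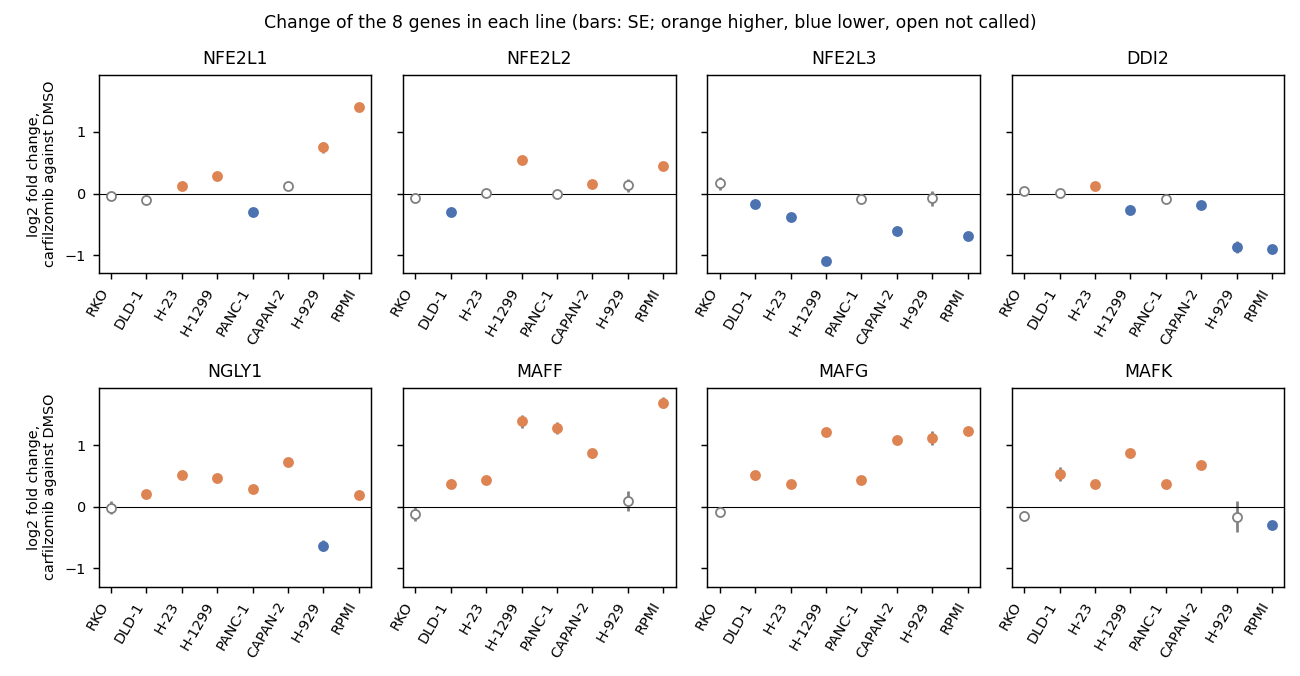
The log2 fold change of each gene (y axis, carfilzomib against DMSO, point with its SE) is shown for the 8 lines (x axis), with filled points for calls. MAFG lies above 0 in every line but RKO, NFE2L3 lies below 0 in every line but RKO, and NFE2L1 spans from -0.30 in PANC-1 to 1.41 in RPMI.

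NFE2L1 rose in 4 lines and fell in 1. As background, 17.9% of the 11622 genes with a test in every line were called higher in 4 or more, and 71.3% lower in 1 or more. In RPMI its level was 160, 154 and 156 CPM in the DMSO libraries and 422, 433 and 393 CPM in the carfilzomib libraries. The groups were wide apart, a 2.66-fold rise, with a log2 fold change of 1.41 ± 0.054 (SE, n = 3 per group, edgeR adjusted p = 1.2e-10). In H-929, the other myeloma line, DMSO libraries had 138, 134 and 136 CPM and carfilzomib libraries 209, 218 and 259 CPM, with a log2 fold change of 0.75 ± 0.088 (edgeR adjusted p = 6.8e-06). Every treated library was again above every control, and the third treated library was the highest.

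Among the carcinoma lines NFE2L1 moved little and not in 1 direction. In H-1299 it went from 271, 270 and 273 CPM to 333, 343 and 314 CPM, a log2 fold change of 0.28 ± 0.042 (edgeR adjusted p = 6.5e-05). In PANC-1, the line with the highest NFE2L1 level, it went from 562, 550 and 556 CPM down to 454, 462 and 435 CPM, a log2 fold change of -0.30 ± 0.030 (edgeR adjusted p = 5.4e-06), again without overlap. The log2 fold change of 0.13 in H-23 was called at an edgeR adjusted p of 0.016, and was no longer called without DMSO replicate 2 (0.09, adjusted p = 0.12) or without carfilzomib replicate 2 (0.10, adjusted p = 0.072). RKO, DLD-1 and CAPAN-2 were not called, with log2 fold changes of -0.04, -0.10 and 0.12. In 2 of them 1 library decided this: without DMSO replicate 3, DLD-1 was called lower (-0.13, edgeR adjusted p = 0.033) and CAPAN-2 higher (0.15, edgeR adjusted p = 0.013).

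NFE2L2, the KEAP1-controlled factor of the oxidative stress response, rose in 3 lines, H-1299, CAPAN-2 and RPMI, and fell in DLD-1. With a test in every line, 30.3% of genes rose in 3 or more lines and 71.3% fell in 1 or more, so these counts are common ones. The libraries of H-1299 had 100, 94.2 and 101 CPM with DMSO and 141, 145 and 146 CPM with carfilzomib, a log2 fold change of 0.55 ± 0.044 (edgeR adjusted p = 2.6e-07). In RPMI the values were 63.6, 62.9 and 65.5 CPM against 86.7, 82.3 and 92.9 CPM (0.45 ± 0.058 on the log2 scale, edgeR adjusted p = 1.3e-05). These groups did not overlap, and neither did those of DLD-1, which ran the other way, from 98.1, 89.6 and 101 CPM to 75.3, 82.0 and 78.1 CPM (-0.29 ± 0.056, edgeR adjusted p = 0.0041). The rise in CAPAN-2 was small (0.15, edgeR adjusted p = 0.030). It lost the call without DMSO replicate 2 (0.15, adjusted p = 0.068) and without carfilzomib replicate 1, 2 or 3 (0.16, 0.14 and 0.16, adjusted p = 0.067, 0.12 and 0.062), and also with the replicate number as a block (adjusted p = 0.063). In H-23, PANC-1, RKO and H-929 the log2 fold changes were 0.01, -0.01, -0.07 and 0.13, and the groups overlapped in each.

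NFE2L3, a CNC factor that is also tethered to the endoplasmic reticulum and is often raised in colon cancer, fell in 5 lines and rose in none. For comparison, 9.94% of genes with a test in every line fell in 5 or more. The largest fall was in H-1299, from 124, 136 and 120 CPM to 57.8, 61.7 and 58.2 CPM, a log2 fold change of -1.09 ± 0.056 (edgeR adjusted p = 5.1e-09). RPMI went from 108, 97.7 and 96.5 CPM to 65.9, 65.0 and 56.4 CPM (-0.69 ± 0.069, edgeR adjusted p = 1.1e-06), and CAPAN-2 from 262, 287 and 288 CPM to 187, 176 and 184 CPM (-0.61 ± 0.057, edgeR adjusted p = 5.1e-07). Each treated library of these 3 lines was below each of its controls. H-23 fell less, from 139, 134 and 135 CPM to 102, 107 and 103 CPM (-0.39 ± 0.038, edgeR adjusted p = 3.1e-06).

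The fall of NFE2L3 in DLD-1 was -0.16 (edgeR adjusted p = 0.032), from 274, 272 and 265 CPM to 228, 254 and 242 CPM. It was not called without DMSO replicate 1 (-0.15, adjusted p = 0.077), DMSO replicate 2 (-0.16, adjusted p = 0.084), carfilzomib replicate 1 (-0.12, adjusted p = 0.13) or carfilzomib replicate 3 (-0.17, adjusted p = 0.090), nor with the replicate number as a block (adjusted p = 0.056). RKO and H-929, where NFE2L3 was lowest before treatment, had values of 23.4 to 33.9 CPM and 22.7 to 26.5 CPM over both treatments and overlapping groups. PANC-1 (log2 fold change -0.10) was not called either.

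**Figure D2:**
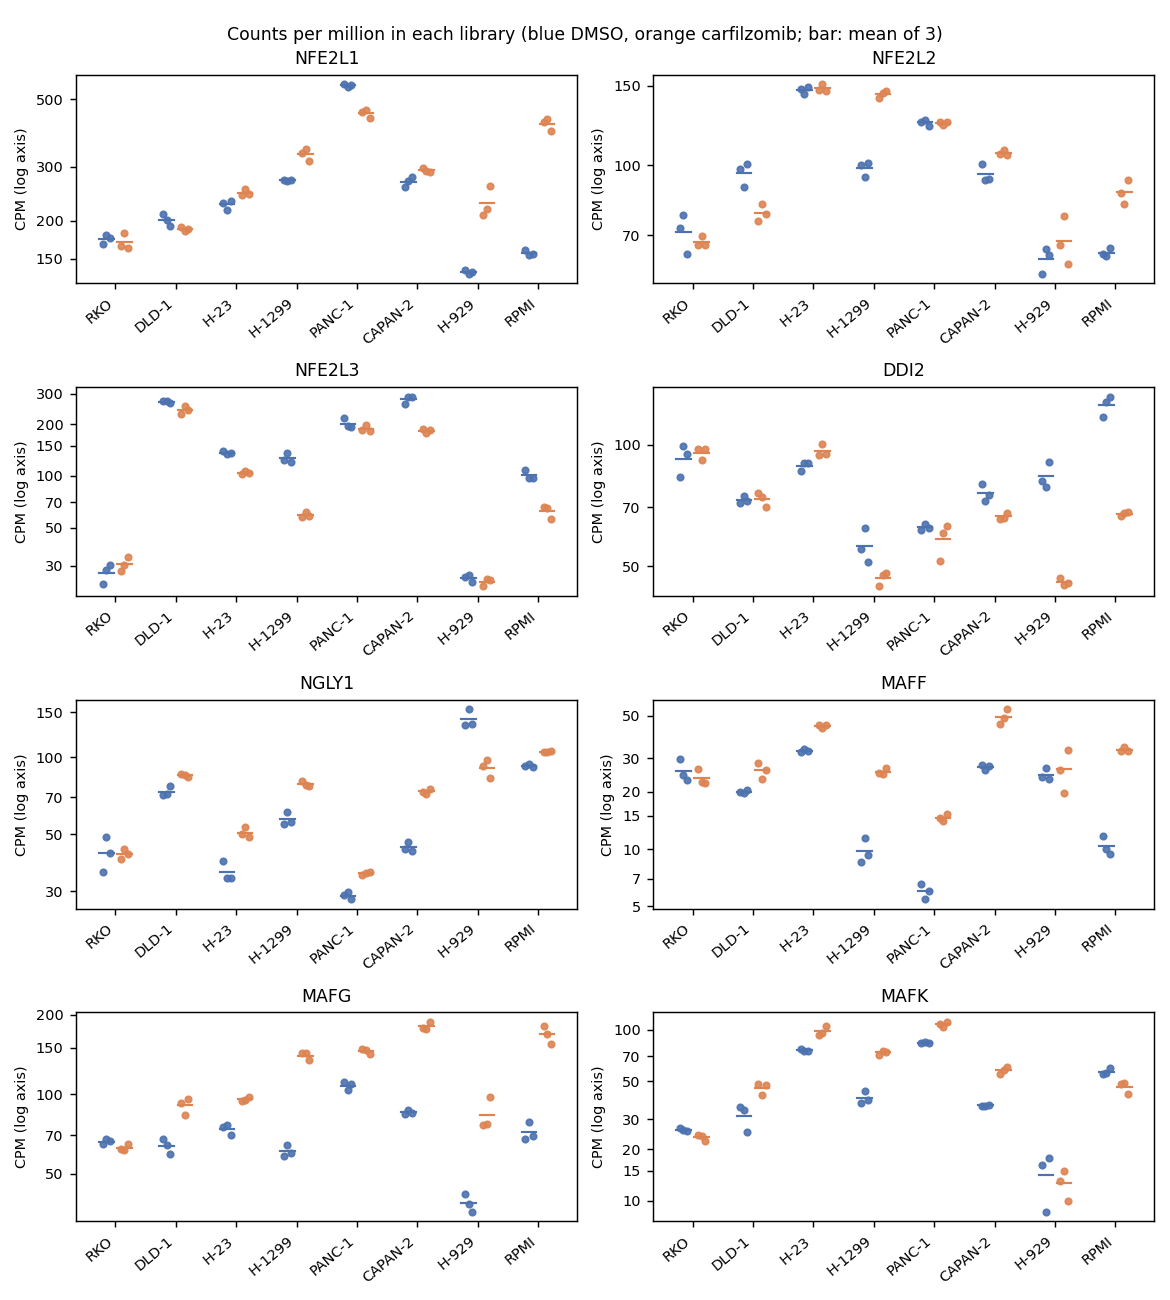
Each point is 1 library, with CPM scaled within the line on a log axis (y) for the 8 lines (x), blue for DMSO and orange for carfilzomib, and a bar at the mean of 3. In RPMI the NFE2L1 libraries run from 154 to 160 CPM with DMSO and from 393 to 433 CPM with carfilzomib, while the NFE2L3 libraries of H-1299 move down from 120 to 136 CPM to 57.8 to 61.7 CPM.

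These changes altered the make-up of the CNC RNA pool. Levels of different genes were compared as CPM per kilobase of exon, scaled over all 48 libraries. The length took in every annotated exon of a gene, whichever transcripts the line made. Shares and ranks between genes depend on that length. In RPMI, NFE2L1 went from 43.9% ± 0.56 to 70.9% ± 0.93 of the summed NFE2L1, NFE2L2 and NFE2L3 level (SD, n = 3), and NFE2L3 from 38.7% ± 1.2 to 14.6% ± 0.69. The sum itself went from 69.0 ± 1.6 to 107 ± 4.1 CPM per kilobase. In H-1299 the share of NFE2L3 went from 32.1% ± 1.8 to 14.7% ± 0.27, with sums of 101 ± 1.2 and 97.9 ± 4.4. In CAPAN-2 NFE2L3 was the most abundant of the 3 before treatment at 51.4% ± 1.0, and NFE2L1 was so afterwards at 45.2% ± 0.43. DLD-1 kept NFE2L3 as its leading CNC transcript, at 55.7% ± 0.65 before and 55.6% ± 1.4 after. RKO stayed at 62.0% ± 0.92 and 61.1% ± 1.6 NFE2L1. These shares are descriptions and were not tested.

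**Figure D3:**
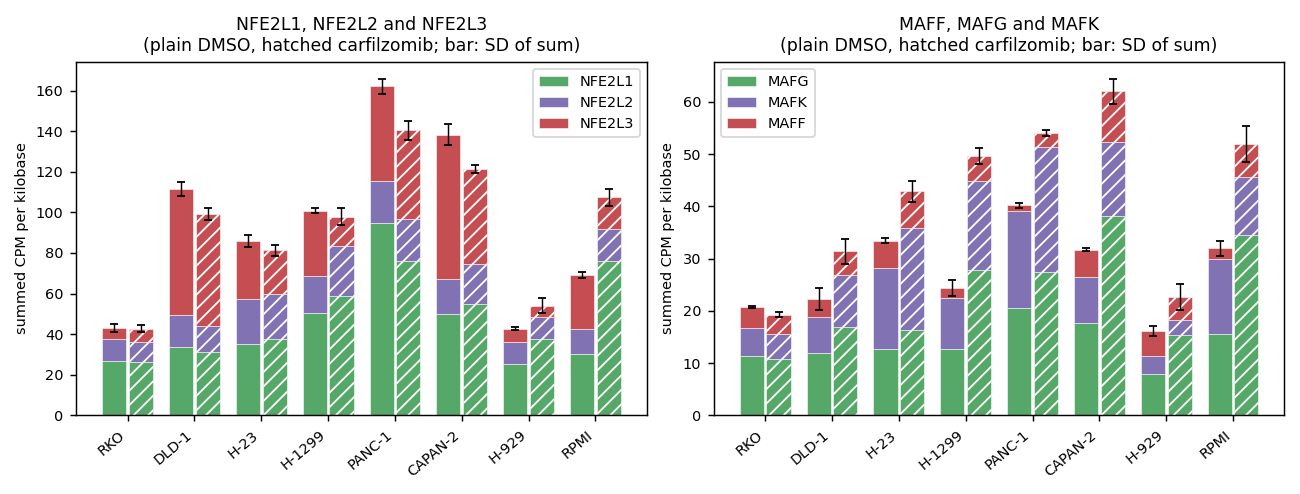
Stacked bars give the summed level in CPM per kilobase (y axis, from 0) of the 3 CNC genes on the left and the 3 small MAF genes on the right for each line (x axis), plain for DMSO and hatched for carfilzomib, with the SD of the sum over 3 libraries. The NFE2L1 segment of RPMI widens from 43.9% to 70.9% of its bar, and the small MAF bars are taller after carfilzomib in every line but RKO.

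Of the 2 enzymes that activate NFE2L1, the protease DDI2 fell in 4 lines and rose in 1. A fall in 4 or more lines was called for 19% of genes, and a rise in 1 or more for 72.7%. Both myeloma lines showed the large falls. H-929 went from 81.5, 78.4 and 90.4 CPM to 46.7, 45.1 and 45.5 CPM, a log2 fold change of -0.87 ± 0.095 (edgeR adjusted p = 3.8e-06), and RPMI from 117, 127 and 131 CPM to 66.6, 67.8 and 68.2 CPM (-0.89 ± 0.056, edgeR adjusted p = 1.1e-08). Groups in both lines were apart, and treated libraries stood close together. H-1299 fell by 0.26 on the log2 scale, from 55.2, 62.0 and 51.4 CPM to 44.6, 47.6 and 48.1 CPM (SE 0.070, edgeR adjusted p = 0.0055).

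DDI2 also fell in CAPAN-2 by 0.19 on the log2 scale (edgeR adjusted p = 0.011), a call lost without DMSO replicate 1 (-0.15, adjusted p = 0.064) or carfilzomib replicate 2 (-0.19, adjusted p = 0.053). The small rise of 0.12 in H-23 (edgeR adjusted p = 0.035) rested on its libraries: it was called without carfilzomib replicate 1 alone, and was lost without DMSO replicate 1, 2 or 3 (0.09, 0.12 and 0.13, adjusted p = 0.18, 0.076 and 0.079) and without carfilzomib replicate 2 or 3 (0.09 and 0.13, adjusted p = 0.15 and 0.063). In RKO, DLD-1 and PANC-1 DDI2 had log2 fold changes of 0.05, 0.01 and -0.10 with overlapping groups. Of the exon bases of DDI2, 1854 (15.3%) also belong to RSC1A1 on the same strand, whose own count was at most 0.45 CPM in any group mean. All of RSC1A1 lies in these bases, so the counts cannot separate it from DDI2, and its low count does not measure its expression.

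NGLY1, which removes N-linked sugars from extracted glycoproteins, rose in 6 lines and fell in 1. A rise in 6 or more lines was called for 4.06% of genes, and a fall in 1 or more for 71.3%. CAPAN-2 had the largest rise, from 43.7, 46.5 and 43.2 CPM to 73.4, 72.2 and 75.6 CPM, a log2 fold change of 0.73 ± 0.057 (edgeR adjusted p = 8.6e-08). H-23 went from 39.3, 33.7 and 33.8 CPM to 50.2, 53.4 and 48.9 CPM (0.51 ± 0.063, edgeR adjusted p = 2.5e-05) and H-1299 from 54.8, 61.1 and 55.8 CPM to 80.8, 78.3 and 77.6 CPM (0.46 ± 0.053, edgeR adjusted p = 6.7e-06). No treated library of these 3 lines fell within its control range. Smaller rises were called in PANC-1 (0.29), DLD-1 (0.21) and RPMI (0.18, from 92.8, 94.1 and 91.6 CPM to 105, 105 and 106 CPM), and RKO was not called (-0.01).

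In H-929, the line with the highest NGLY1 level before treatment, the gene went the other way. DMSO libraries had 134, 154 and 136 CPM and carfilzomib libraries 92.8, 97.7 and 83.3 CPM, a log2 fold change of -0.63 ± 0.091 (edgeR adjusted p = 4.6e-05), without overlap. H-929 thus had both activating enzymes lower after treatment, while in RPMI DDI2 was lower and NGLY1 slightly higher. The summed level of the 7 plasma cell markers was also lower after carfilzomib in both lines. It was 7017 to 7521 CPM against 3874 to 3990 CPM in H-929, and 1937 to 2190 CPM against 1122 to 1269 CPM in RPMI. This sum was lower without overlap in every carcinoma line too. The carcinoma lines had only 3 or 4 of the 7 markers above 1 CPM with DMSO. In CAPAN-2 the sum was 516 to 580 CPM against 398 to 420 CPM, and SDC1 (375 CPM) and XBP1 (164 CPM) made up most of it with DMSO. In H-1299 the summed level of the 6 epithelial markers was 971 to 1066 CPM with DMSO and 361 to 400.3 CPM with carfilzomib, and in PANC-1 that of the 6 stromal and leukocyte markers was 162 to 173 CPM and 90.5 to 104 CPM. The 6 epithelial markers summed higher after carfilzomib without overlap in DLD-1, PANC-1 and H-929 (44.9 to 59.9 against 90.5 to 97.5 CPM in H-929). They summed lower in CAPAN-2 and RPMI, as in H-1299. The part of these shifts in the results of the lines was not tested.

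The small MAF proteins lack an activation domain of their own and serve the CNC and BACH factors as obligate partners. MAFG, the most abundant of the 3 per kilobase before treatment in every line but H-23, rose in every line but RKO. A rise in 7 or more lines was called for 1.33% of genes. RPMI went from 67.6, 78.4 and 69.4 CPM to 182, 169 and 155 CPM, a 2.35-fold rise and a log2 fold change of 1.23 ± 0.072 (edgeR adjusted p = 5.0e-09). H-1299 went from 58.1, 64.3 and 60.1 CPM to 143, 143 and 135 CPM (1.21 ± 0.050, edgeR adjusted p = 9.5e-10), and CAPAN-2 from 84.1, 87.2 and 84.8 CPM to 179, 178 and 188 CPM (1.09 ± 0.053, edgeR adjusted p = 7.0e-10). Treated libraries stood well above their controls in all 3 lines.

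H-929 had 41.9, 38.3 and 35.8 CPM of MAFG with DMSO and 76.6, 77.3 and 97.5 CPM with carfilzomib, a log2 fold change of 1.11 ± 0.11 (edgeR adjusted p = 2.0e-06). The rises in DLD-1 (0.51), PANC-1 (0.43) and H-23 (0.38) were smaller, with edgeR adjusted p between 1.7e-06 and 4.1e-04, and no group overlapped. RKO had 64.5, 67.5 and 66.4 CPM against 61.9, 61.2 and 64.6 CPM (-0.08, edgeR adjusted p = 0.43). SIRT7, which shares 105 exon bases (2.01%) with MAFG on the same strand, had log2 fold changes from 0.13 to 0.63.

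The upstream stretch of MAFG is shown because MAFG was called higher in more lines than any other member. It is the 250 bases before its RefSeq start, chr17:81927736-81927985 on the minus strand of GRCh38.p14, and holds no annotated MAFG exon. The capitals mark a heat shock element core (GAANNTTC or TTCNNGAA, here the latter) 31 bases before the start and an E-box (CACGTG) 16 bases before it.
MAFG: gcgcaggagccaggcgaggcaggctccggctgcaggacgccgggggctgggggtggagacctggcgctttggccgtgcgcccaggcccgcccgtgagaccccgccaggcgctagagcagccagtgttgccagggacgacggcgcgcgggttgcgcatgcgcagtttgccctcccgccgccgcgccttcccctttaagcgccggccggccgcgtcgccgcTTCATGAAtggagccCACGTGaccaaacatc

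MAFF rose in 6 lines. Calls in the higher direction in 6 or more lines were made for 4.06% of genes. RPMI went from 11.7, 10.1 and 9.45 CPM to 32.8, 34.3 and 32.7 CPM, a 3.23-fold rise and a log2 fold change of 1.69 ± 0.094 (edgeR adjusted p = 3.3e-09). H-1299 went from 8.59, 11.4 and 9.33 CPM to 25, 24.8 and 26.8 CPM (1.39 ± 0.10, edgeR adjusted p = 1.5e-07), and PANC-1 from 6.53, 5.46 and 6.04 CPM to 14.5, 14 and 15.3 CPM (1.28 ± 0.095, edgeR adjusted p = 4.6e-07). These were the 3 lines with the least MAFF before treatment, and their groups lay far apart. CAPAN-2 rose from 27.7, 26.2 and 27.2 CPM to 45.5, 48.7 and 54.2 CPM (0.87 ± 0.069, edgeR adjusted p = 1.0e-07).

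Smaller rises of MAFF were called in H-23 (0.43) and DLD-1 (0.38). H-929 had 24.0, 26.5 and 23.2 CPM with DMSO and 26, 19.8 and 32.9 CPM with carfilzomib, so its treated libraries lay on both sides of the controls (0.09 ± 0.16, edgeR adjusted p = 0.66). RKO was not called (-0.12). Between H-929 and RPMI the log2 fold changes were thus 1.11 and 1.23 for MAFG and 0.09 and 1.69 for MAFF.

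Both RefSeq start windows of MAFF lie inside exons of other annotated MAFF transcripts, so short stretches around the matches are shown. Capitals mark an ARE core (TGACNNNGC, read here on the opposite strand), a cAMP response element (CRE, TGACGTCA) and an E-box, 122, 54 and 196 bases before the first of the 2 starts, all on the plus strand of GRCh38.p14 at chr22:38201862-38201891, chr22:38201929-38201958 and chr22:38201786-38201815.
MAFF ARE core: cttccaggggGCGGGGTCAtacgggggcgg
MAFF CRE: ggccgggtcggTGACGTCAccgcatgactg
MAFF E-box: ctcgcgaggtgtCACGTGaacgcacccagc

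The RefSeq promoter table gave 11 such windows for 7 members, with no entry used for MAFK. The ARE core stood in 1 of the 11, the CRE in 1, the heat shock element in 1 and the E-box in 3, searched on both strands. The AP-1 element (TGANTCA) and the C/EBP-ATF element (TGATGNAA) stood in none. Of all 35116 promoter windows of 250 bases, 10.9% held the ARE core, 1.65% the CRE, 11.6% the heat shock element, 6.34% the E-box, 6.57% the AP-1 element and 3.14% the C/EBP-ATF element. An ARE core match and an AP-1 match can share bases. A match is a string of letters and shows no binding.

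MAFK rose in 5 lines and fell in 1. A rise in 5 or more lines was called for 9.25% of genes, and a fall in 1 or more for 71.3%. In H-1299 it went from 37.5, 43.9 and 39 CPM to 71.5, 75.6 and 74.3 CPM, a log2 fold change of 0.88 ± 0.063 (edgeR adjusted p = 9.4e-08), and in CAPAN-2 from 35.9, 36 and 36.5 CPM to 55.1, 58.1 and 61 CPM (0.68 ± 0.059, edgeR adjusted p = 2.4e-07). DLD-1 (0.53), H-23 (0.37) and PANC-1 (0.37) rose as well, and no group overlapped in these 5 lines. In RPMI MAFK went down, from 55, 56.1 and 59.9 CPM to 48.4, 49.1 and 42.1 CPM (-0.30 ± 0.070, edgeR adjusted p = 0.0022), in the line where MAFF and MAFG rose most. H-929 had few MAFK counts, 16.2, 8.62 and 17.8 CPM against 13, 15 and 9.96 CPM, and its groups overlapped (-0.16 ± 0.25). RKO was not called (-0.15). Of the MAFK exon bases, 809 (18.1%) lie opposite exons of TMEM184A, which fell by 0.89 on the log2 scale in RPMI, where MAFK fell. TMEM184A also fell in H-23 (-0.25) and CAPAN-2 (-0.21), where MAFK rose, and rose with MAFK in H-1299 (0.76). Before treatment TMEM184A had 15.5 CPM in RPMI against 57.0 CPM of MAFK, and 106 CPM in CAPAN-2 against 36.1 CPM. Whether counting used the strand is not given in the sources used here.

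Summed per kilobase, the small MAF level went from 24.3 ± 1.5 to 49.6 ± 1.5 CPM per kilobase in H-1299, from 31.6 ± 0.27 to 62.0 ± 2.4 in CAPAN-2 and from 32 ± 1.4 to 51.9 ± 3.5 in RPMI (SD, n = 3). In RKO it went from 20.7 ± 0.24 to 19.3 ± 0.43. The share of MAFG in this sum went from 48.4% ± 2.3 to 66.4% ± 1.1 in RPMI and from 49.5% ± 3.4 to 68.0% ± 1.9 in H-929. In H-23 MAFK was the leading small MAF in both treatments, at 46% ± 0.86 and 45.6% ± 1.2. These sums were not tested.

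Levels before treatment differed widely between lines. NFE2L3 had the widest range, 5.76 ± 0.82 CPM per kilobase in RKO and 6.45 ± 0.35 in H-929, which overlapped, then 26.7 ± 1.3 in RPMI, 28.9 ± 0.66 in H-23, 32.3 ± 2.0 in H-1299, 46.9 ± 3.2 in PANC-1, 62.1 ± 1.6 in DLD-1 and 71.1 ± 4.0 in CAPAN-2, none of which overlapped its neighbour. That is a 12.3-fold range. The 2 colon lines stood near its opposite ends. NFE2L1 was lowest in H-929 (25.1 ± 0.37) and RKO (26.7 ± 1.1), which overlapped, followed by RPMI (30.2 ± 0.54). DLD-1 (33.7 ± 2.0) overlapped H-23 (35 ± 1.7), CAPAN-2 (49.9 ± 2.0) overlapped H-1299 (50.5 ± 0.62), and PANC-1 stood highest at 94.6 ± 0.85. NFE2L2 varied least, 2.08-fold, from 10.7 ± 0.89 in RKO through H-929 (11.2 ± 0.75), RPMI, DLD-1, CAPAN-2, H-1299 and PANC-1 to 22.2 ± 0.67 in H-23, with overlaps between RKO, H-929 and RPMI and between CAPAN-2 and H-1299.

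The activating enzymes were highest in the myeloma lines. DDI2 had 11.6 ± 0.88 CPM per kilobase in RPMI and 7.39 ± 0.50 in H-929, and the other lines lay between 5.02 ± 0.46 in H-1299 and 6.83 ± 0.67 in RKO. Neighbours overlapped except from PANC-1 to DLD-1, from DLD-1 to H-23 and from H-929 to RPMI. NGLY1 had 18.3 ± 1.5 in H-929 and 12.6 ± 0.18 in RPMI, and went down over DLD-1 (8.62), H-1299 (7.46), CAPAN-2 (5.77), RKO (4.55) and H-23 (3.86) to PANC-1 at 3.44 ± 0.10. H-23 and RKO alone overlapped in that order.

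Among the small MAF genes, MAFF was lowest in PANC-1 (1.06 ± 0.093), where NFE2L1, MAFG and MAFK were highest, and reached 5.28 ± 0.080 in H-23. Its order was PANC-1, H-1299, RPMI, DLD-1, RKO, H-929, CAPAN-2 and H-23, with overlaps between H-1299 and RPMI and along RKO, H-929, CAPAN-2 and H-23. MAFG went from 7.97 ± 0.67 in H-929 over RKO, DLD-1, H-1299 and H-23, which overlapped in turn, to RPMI (15.5 ± 1.3), CAPAN-2 (17.7 ± 0.37) and PANC-1 (20.5 ± 0.64), which did not. MAFK went from 3.42 ± 1.2 in H-929 over RKO, DLD-1, CAPAN-2 and H-1299 to RPMI (14.4 ± 0.93) and H-23 (15.4 ± 0.24), the one overlapping pair, and PANC-1 (18.6 ± 0.21).

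**Figure D4:**
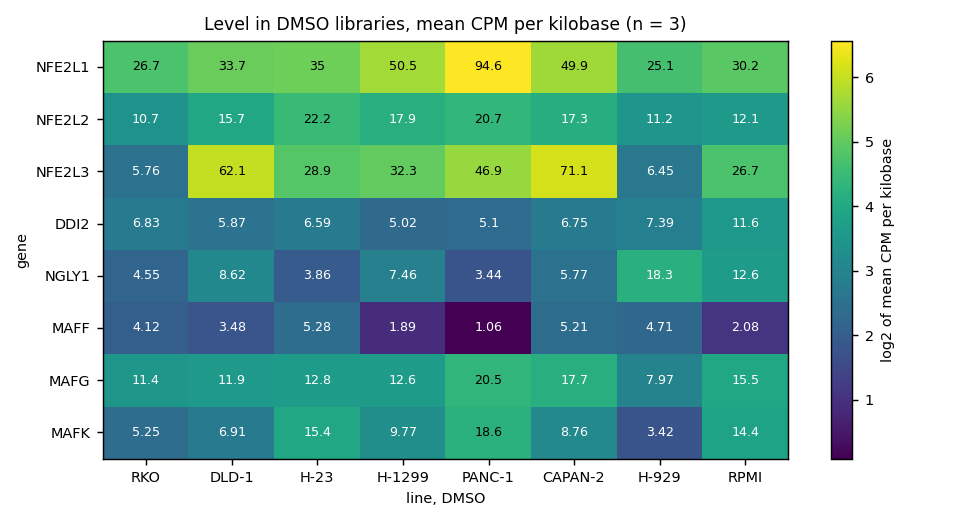
Each cell gives the mean CPM per kilobase over 3 DMSO libraries of a gene (rows) in a line (columns), with the colour on a log2 scale. NFE2L1 in PANC-1 is the highest cell at 94.6 and MAFF in PANC-1 the lowest at 1.06, and the NFE2L3 row holds both 5.76 in RKO and 71.1 in CAPAN-2.

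A joint edgeR fit of all 48 libraries gave the average over the 8 lines, with an error taken from replicates of the same group. By this test 6 members were higher and 2 lower on average, where 19.8% of 22309 genes were called higher and 23.9% lower. The averages on the log2 scale were 0.71 ± 0.038 for MAFF, 0.69 ± 0.024 for MAFG, 0.24 ± 0.020 for NFE2L1, 0.24 ± 0.041 for MAFK, 0.18 ± 0.024 for NGLY1, 0.07 ± 0.021 for NFE2L2, -0.31 ± 0.023 for DDI2 and -0.41 ± 0.025 for NFE2L3 (SE). The average of NFE2L2 had an edgeR adjusted p of 0.0038 and was no longer called without H-1299 (0.02, adjusted p = 0.74), without RPMI (0.03, adjusted p = 0.42) or without the replicates numbered 2 (0.05, adjusted p = 0.10). With the 8 lines as the units, so that the spread between lines is the error, limma called none of the 8 members and 102 of 11622 genes. It averaged the log2 fold changes of the separate fits. These averages were higher for every member than in the joint fit, whose scaling runs over all 48 libraries. NFE2L1 had 0.28 against 0.24, and NFE2L2 0.12 against 0.07. The limma adjusted p was 0.054 for MAFG, 0.091 for MAFF and 0.15 for NFE2L3, and 0.25 to 0.51 for the other 5. Before adjustment 2755 of the 11622 genes had a p under 0.05, and MAFG (0.00075), MAFF (0.0036) and NFE2L3 (0.021) were the members among them.

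The effect of carfilzomib differed between the lines for all 8 members by the joint edgeR fit, as it did for 67.7% of genes. Lines of one tumour type were then compared with each other in the same joint fit. Its scaling runs over all 48 libraries, so these gaps differ somewhat from gaps between the log2 fold changes of the separate fits above. Between RKO and DLD-1, MAFG (-0.58 ± 0.098) and MAFK (-0.67 ± 0.17) differed, where 4.04% of genes did (log2 fold change of the first line minus that of the second, SE). H-23 and H-1299 differed for 6 members, with 30.8% of genes. The log2 fold change was lower in H-23 for MAFF (-0.92 ± 0.14), MAFG (-0.78 ± 0.093), NFE2L2 (-0.49 ± 0.082) and MAFK (-0.46 ± 0.14), and higher there for NFE2L3 (0.75 ± 0.093) and DDI2 (0.43 ± 0.091). NFE2L1 (-0.11) and NGLY1 (0.09) were not called.

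PANC-1 and CAPAN-2 differed for 4 members, NFE2L3 (0.49 ± 0.090), NFE2L1 (-0.45 ± 0.077), NGLY1 (-0.47 ± 0.097) and MAFG (-0.68 ± 0.092), with 24.9% of genes. H-929 and RPMI differed for 5 members, with 40.5% of genes. The widest gap was in MAFF (-1.68 ± 0.16), followed by NGLY1 (-0.90 ± 0.095), NFE2L1 (-0.74 ± 0.080), NFE2L3 (0.52 ± 0.12) and NFE2L2 (-0.40 ± 0.091). For DDI2 (-0.05 ± 0.099, edgeR adjusted p = 0.75), MAFG (-0.20 ± 0.10, edgeR adjusted p = 0.11) and MAFK (0.07 ± 0.20, edgeR adjusted p = 0.86) no difference between the myeloma lines was called. The sign for DDI2 depended on the scaling, since in the separate fits it fell slightly more in RPMI (-0.89) than in H-929 (-0.87). Each line had its own dose, so line and dose cannot be told apart in these comparisons.

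Genes downstream and around NFE2L1 give the setting. Of 33 proteasome subunit genes, the targets of the bounce-back response, 32 were tested. Of their 256 tests, 206 were called higher (20.8% over all genes) and 4 lower (21.1%). In RKO none was higher and 2 were lower, with a median log2 fold change of -0.03, and all 32 rose in DLD-1 and in PANC-1 (medians 0.53 and 0.62). The numbers were 30 in H-23 (0.42), 30 in H-1299 (0.85), 31 in CAPAN-2 (1.27), 21 in H-929 (0.43, with 2 lower) and 30 in RPMI (0.94). The median of all tested genes was between -0.02 and 0.03 in each line. PSMD2 of the regulatory particle had the highest mean change over the lines (0.91), going from 245 to 737 CPM in CAPAN-2. PSMB5, the catalytic subunit that carfilzomib binds, rose in 7 lines, from 122 to 291 CPM in CAPAN-2 and from 43.2 to 53.7 CPM in H-929. PSMC4 had the lowest mean (-0.07), but its identifier is shared by more than 1 row. In most lines 1 library stood far above the others of its group. Examples are RKO (20, 386 and 38 counts with DMSO) and DLD-1 (23, 18 and 757 counts with carfilzomib). With DMSO the same held in H-23 (657, 12 and 31 counts), H-1299 (131, 77 and 3873), CAPAN-2 (375, 24 and 7) and RPMI (236, 11 and 18). Without PSMC4, 204 of 248 tests were higher and 3 lower, with all 31 subunit genes higher in DLD-1 and in PANC-1 and 1 lower in RKO.

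PANC-1 combined a fall of NFE2L1 RNA with a rise of all tested subunit genes. In DLD-1 all rose with no call for NFE2L1. Set against the subunit median over 8 lines, the log2 fold change of NFE2L1 had a Pearson r of 0.29 (Spearman's rho 0.21), while MAFG had 0.78 (0.71), MAFF 0.73 (0.79) and NFE2L3 -0.75 (-0.74). The others were NGLY1 0.55 (0.45), NFE2L2 0.54 (0.64), MAFK 0.45 (0.29) and DDI2 -0.32 (-0.64). Without CAPAN-2 and RKO, the lines farthest from the middle, r over 6 lines was 0.49 for NFE2L1, 0.63 for MAFG, 0.92 for MAFF, -0.76 for NFE2L3, 0.33 for NGLY1, 0.76 for NFE2L2, -0.01 for MAFK and -0.39 for DDI2. Members and subunits come from the same libraries and scaling, and these values are descriptions over 8 points.

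**Figure D5:**
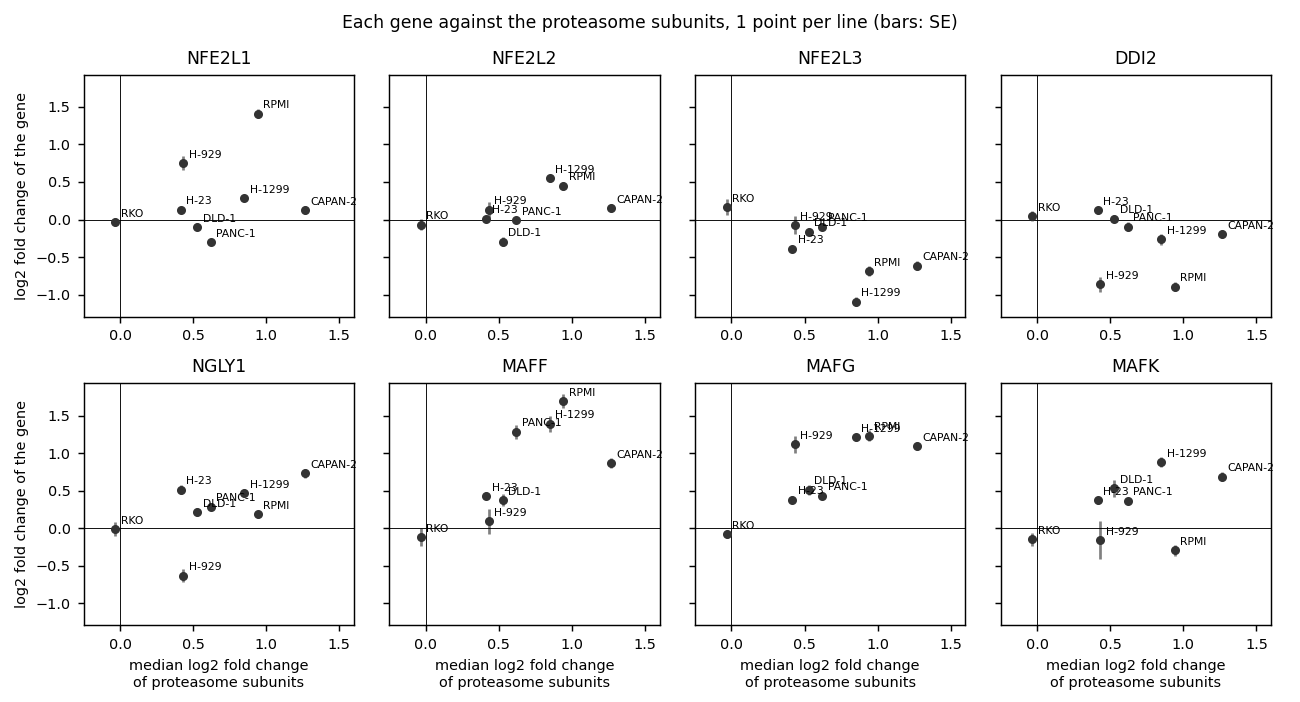
Each point is 1 line, placed by the median log2 fold change of the proteasome subunit genes (x axis) and the log2 fold change of the named gene (y axis, SE). PANC-1 lies below 0 for NFE2L1 (-0.30) at a subunit median of 0.62, and the points of NFE2L3 run from 0.17 in RKO down to -1.09 in H-1299.

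The ARE core, the letters that CNC and small MAF pairs recognise, stood in 8 of 37 promoter windows of proteasome subunit genes, from 7 of the 28 genes in the table (21.6% of windows, against 10.9% of all windows). The matches of PSMA4 (chr15:78540650-78540679, plus strand) and PSMD12 (chr17:67366723-67366752, minus strand) are shown as examples of the element, with the core in capitals. Each gene rose in 6 lines and fell in 1, PSMA4 in H-929 (-0.28) and PSMD12 in RKO (-0.20).
PSMA4: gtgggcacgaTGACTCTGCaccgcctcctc
PSMD12: agacaaaaccTGACGCTGCaggctggagtg

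Of 14 genes for the extraction, modification and turnover of NFE2L1, all were tested in every line. Of their 112 tests, 60 were called higher (20.8% over all genes) and 16 lower (21.1%). UFD1, a cofactor of the VCP segregase that pulls proteins out of the endoplasmic reticulum, had the highest mean (0.95) and rose in 7 lines, from 39 to 137 CPM in CAPAN-2. VCP itself rose in 6 lines, from 453 to 874 CPM in RPMI, with H-929 (0.13) and RKO (0.10) not called. OGT, the O-GlcNAc transferase, had the lowest mean (-0.10), falling in 4 lines and rising in RPMI (0.69).

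Of the 6 other CNC and BACH genes and KEAP1 ligase genes, 16 of 42 tests were called higher (20.8% over all genes) and 6 lower (21.1%). BACH1, a repressor that also pairs with small MAF proteins, rose in 6 lines, most in RPMI (0.93, from 181 to 344 CPM) and H-929 (0.92). It was not called in RKO and DLD-1. KEAP1, the adaptor that marks NFE2L2 for destruction, rose in H-1299 (0.19), CAPAN-2 (0.38) and H-929 (0.32). RBX1, the ring subunit of that ligase, had the lowest mean (-0.14). NFE2, the blood cell member of the CNC family, was tested in 3 lines, and in H-929 had 6, 0 and 0 counts with DMSO and 46, 22 and 32 counts with carfilzomib. BACH2 rose in 4 lines and fell in H-929 (-0.44), on a row that shares its identifier with another.

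Of 17 NRF2 target genes, 92 of 135 tests were called higher (20.8% over all genes) and 8 lower (21.1%), including 4 higher in RKO. HMOX1, which breaks down heme, had the highest mean (2.00). It rose from 84.3 to 2095 CPM in RPMI and also in RKO (0.67, edgeR adjusted p = 4.5e-04). TKT of the pentose phosphate pathway had the lowest mean (-0.07). The median of this list was 1.00 in CAPAN-2, 0.93 in H-929, 0.79 in RPMI and 0.13 in RKO. In H-929 the list stood high while the RNA of NFE2L2 was not called.

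The genes most like each member were taken from 14019 genes by the Pearson r of log2 CPM over the 48 libraries after centring each line, a measure that the shared treatment contributes to. They were IFIT2 (0.94) and ZFAS1 (0.94) for NFE2L1, MON2 (0.87) and CBLL1 (0.87) for NFE2L2, PLEKHJ1 (0.95) and PACS2 (0.94) for NFE2L3, ATP1B3 (0.95) and SYNCRIP (0.95) for DDI2, and PRPS1 (0.95) and STRAP (0.94) for NGLY1. For the small MAF genes they were CAMK2G (0.90) and RAB2B (0.89) for MAFF, NSFL1C (0.97) and NPLOC4 (0.97) for MAFG, and AAMP (0.83) and DAGLB (0.82) for MAFK. NPLOC4 is the partner of UFD1 on VCP and belongs to the list of extraction genes above. Among the members, r was -0.85 between NFE2L3 and MAFG, -0.83 between NFE2L1 and DDI2, 0.82 between MAFF and MAFG, and -0.81 between NFE2L3 and MAFF.

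On GRCh38 the genes lie at chr17:48048329-48061487 (NFE2L1, ENSG00000082641, plus strand), chr2:177227595-177392697 (NFE2L2, minus), chr7:26152240-26187125 (NFE2L3, plus), chr1:15617500-15669044 (DDI2, plus), chr3:25718944-25790039 (NGLY1, minus), chr22:38200767-38216511 (MAFF, plus), chr17:81918270-81927714 (MAFG, minus) and chr7:1530714-1543043 (MAFK, plus). NGLY1 shares 536 exon bases (6.44%) with OXSM on the opposite strand and NFE2L2 shares 54 with AGPS. HNRNPA2B1 overlaps NFE2L3 and PLA2G6 overlaps MAFF without shared exon bases.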

How the data were processed

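The deposited table holds raw read counts per gene for 48 libraries, made by the authors. The submitters' processing notes name bcl2fastq 2.19, FastQC, Trimmomatic, HISAT2, DESeq2 and hg38. The counting program, annotation and use of strand are not given in the sources used here. Each line was fitted alone with edgeR 4.0.16 (R 4.3.3, TMM, filterByExpr, quasi-likelihood test, Benjamini-Hochberg over all genes, 0.05), and all libraries together for averages and differences between lines. The fits were tested on simulated data. CPM use TMM totals of the line, CPM per kilobase those of all 48 libraries and GENCODE 29 exon lengths. Totals of 9.12 to 64.4 M counts set counting error only, and no molecular identifiers are known.

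The text names all 8 members, the genes with the highest and lowest mean change of 4 lists, KEAP1, BACH1, BACH2, NFE2, VCP and PSMB5, and the 2 genes most like each member (mean of at least 50 counts). HSE, ARE and other motifs were searched in RefSeq windows. Members and lists were chosen with earlier results of these data known. Comparing lines within a tumour type, the overlap of gene models, the promoter examples and leaving out PSMC4 were added after seeing the data. Replicate pairs differed by more than sampling error (chi-square 3.47 to 17.2 per degree of freedom), so none was merged. Same-numbered replicates did not deviate together (correlations -0.06 to 0.07), so no block was used. Alternatives were DESeq2 1.42.0, its size factors, library totals, 2 filters, one fit of 48 libraries, a replicate block, limma 3.58.1 on lines, and leaving out libraries or lines.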

Additional observations from a re-analysis of the deposited data

Results flagged for a closer look

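The test that the effect of carfilzomib is equal in the 8 lines flagged all 8 members in the joint edgeR fit, where 67.7% of all genes were called. Its F was 84.8 for NFE2L1, 45.3 for NGLY1, 44.4 for MAFG, 43.4 for DDI2, 36.6 for MAFF, 35.2 for NFE2L3, 17.9 for NFE2L2 and 15.8 for MAFK. NFE2L1 ranged from -0.30 in PANC-1 to 1.41 in RPMI on the log2 scale, NGLY1 from -0.63 in H-929 to 0.73 in CAPAN-2, and MAFK from -0.30 in RPMI to 0.88 in H-1299.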

How the results depend on the processing

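With the lines as units the count of members with a higher average went from 6 to 0 and that with a lower average from 2 to 0. With the replicate block 31 of 64 member tests were called higher and 12 lower, against 32 and 13, and the calls lost were NFE2L2 in CAPAN-2 (0.15) and NFE2L3 in DLD-1 (-0.16); in no line did the block change another member's call. Library totals, which moved the median of all genes in H-1299 by -0.11 and by no more than 0.04 elsewhere, gave 30 and 12 calls, one fit of 48 libraries 30 and 13, no filter 31 and 13, and the DESeq2 Wald test 33 and 13. Library totals lost DDI2 in H-23 (0.09), NFE2L2 in CAPAN-2 (0.13) and NFE2L3 in DLD-1 (-0.12), and one fit of 48 libraries lost DDI2 in H-23 (0.10), NFE2L3 in DLD-1 (-0.17), NFE2L1 in H-23 (0.11) and NGLY1 in RPMI (0.10). Without a filter DDI2 in H-23 (0.10) was lost. NFE2L1 in CAPAN-2 was called with DESeq2's size factors (0.13), the Wald test (0.14) and one fit (0.14), and NFE2L3 in H-929 with one fit (-0.24). In H-929 one fit moved NFE2L2 from 0.13 to -0.031, NFE2L3 from -0.08 to -0.24 and MAFF from 0.09 to -0.073. The TMM factors over all 48 libraries were 0.90 to 0.94 for its DMSO libraries and 1.03 to 1.06 for its carfilzomib libraries. The cause was not tested. Direction changed in uncalled values alone: with library totals NFE2L1 in RKO (0.0074), NFE2L2 in H-23 (-0.017) and NGLY1 in RKO (0.031); without a filter NFE2L2 in H-23 (-0.011); with a mean of at least 50 counts NFE2L3 in H-929 (0.034); and in one fit NFE2L2 in H-23 (-0.013) and H-929 (-0.031) and MAFF in H-929 (-0.073). Leaving out 1 library moved NFE2L2 in H-23 between -0.013 and 0.015, DDI2 in RKO between -0.020 and 0.096, DDI2 in DLD-1 between -0.011 and 0.042, NGLY1 in RKO between -0.11 and 0.098, MAFF in H-929 between -0.13 and 0.23, and MAFK in H-929 between -0.44 and 0.014. Of the 45 calls, 40 were kept in all 6 such fits of their line.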
